A study of Mus musculus with 4 samples.

Results

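Epithelial-mesenchymal transition (EMT) regulators are transcription factors and RNA-binding proteins that hold cells in an epithelial or a mesenchymal state. The set described here has 10 genes, chosen by name from 53465 genes counted in each library. The mesenchymal side has 4 of them, Zeb1, Zeb2, Snai1 and Snai2, and the epithelial side has 6, Ovol1, Ovol2, Grhl2, Esrp1, Esrp2 and Elf3. All 10 were found in the count files, and all 10 passed the filter on low counts, which left 16320 genes to test.

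RNA came from cells sorted as FGF10+ from the submandibular gland (SMG), a salivary gland of epithelial acini and ducts in a mesenchymal stroma. All mice were C57BL/6J with the genotype Fgf10CreERT2:Rosa26Tomato fl/fl, in which tamoxifen switches on a red reporter in cells that express Fgf10 at that time. Tamoxifen was given at 0.1 mg per g of body weight. Adult mice received it on postnatal days 57 and 58 and were used on day 60, and pup mice received it on days 4 and 5 and were used on day 7. Each age has 2 libraries. Every group carries the same driver and reporter, and only cells with Fgf10 activity at injection are marked. The labels do not say whether replicates are separate animals or pools, so the spread behind each p-value is that between libraries and may be technical.

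ZEB and SNAIL proteins are zinc finger repressors that bind E-boxes and silence genes of cell adhesion such as E-cadherin. OVOL proteins are zinc finger repressors of the epithelium that act against ZEB genes, and GRHL2 is a grainyhead factor that sustains adhesion genes. ESRP1 and ESRP2 bind RNA and direct epithelial patterns of splicing, and ELF3 is an ETS-family factor of epithelial cells. In glands, the epithelial factors are typical of duct and acinar cells, and the mesenchymal ones of the surrounding stroma.

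Counts over genes ranged from 7289792 in pup replicate 1 to 21490686 in pup replicate 2. In pup replicate 1, 76.7% of all tallied reads fell in no gene, against 9.70% to 10.6% in the other 3 libraries. Olfactory receptor genes, which salivary cells do not use, had a count for 96.5% of 1134 members there and for 1.59% to 7.67% elsewhere. That background came to 14.0 counts per kb of exon in pup replicate 1 and to 0.0661 to 0.151 in the others, and each member's count in that library is given below with the background expected for it. Fgf10 itself stood at 195 and 40.3 CPM (counts scaled to library size with TMM factors) in adult replicates 1 and 2, and at 27.3 and 24.1 CPM in pup replicates 1 and 2.

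Markers of other cell types separated the adult libraries from each other. Fibroblast markers summed to 1066 and 17171 CPM in adult libraries, compared with 20599 and 45404 CPM in pup libraries. Endothelial markers summed to 18.7 CPM in adult replicate 1, with 6 of 10 at 0 counts, and to 2342 CPM in adult replicate 2, where none was at 0. In the pups the endothelial sums were 139 and 40.8 CPM. Myoepithelial and basal markers, led by Krt14 and Acta2, summed to 4615 and 1862 CPM in adult libraries, compared with 4684 and 14007 CPM in pup libraries. Ionocyte markers summed to 5997 and 2896 CPM in adult libraries, compared with 62.9 and 45.8 CPM in pup libraries. The low endothelial and ionocyte sums of pup replicate 1 include its background. The amount expected for endothelial genes ran from 126 of 346 counts for Kdr to 48.5 against 16 for Erg. For ionocyte genes it ran from 9.79 of 31 counts for Ascl3 to 38.5 against 10 for Bsnd. The part of these cell types in the results below was not tested. In bulk RNA, fewer cells of a type and less RNA per cell cannot be told apart.

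**Figure D1:**
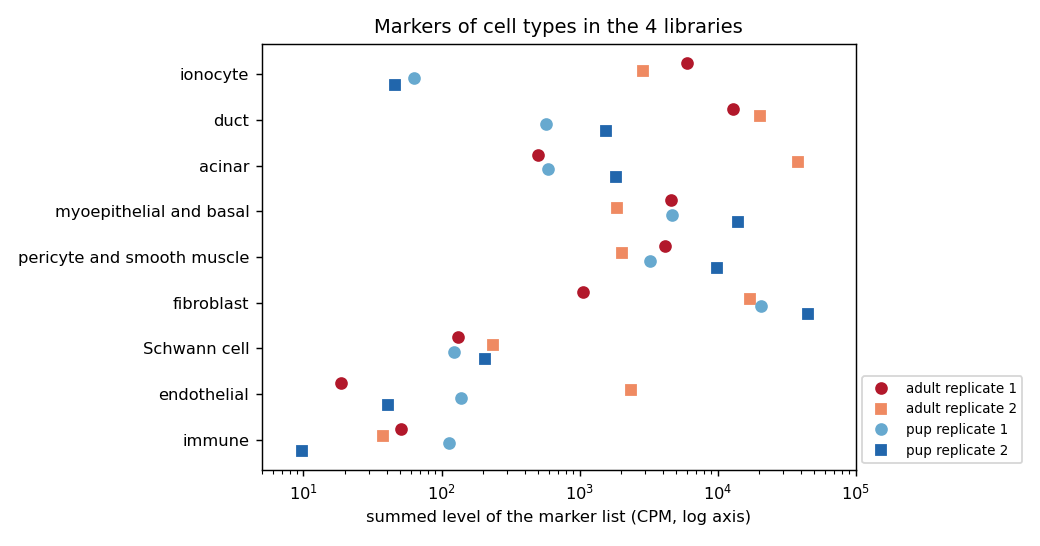
Summed level of 9 fixed marker lists (x axis, CPM on a log axis) in each library (points; circles are replicate 1, squares replicate 2). Fibroblast markers in adult replicate 2, at 17171 CPM, sit near the 20599 CPM of pup replicate 1, and endothelial markers are highest in adult replicate 2, at 2342 CPM.

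The mesenchymal regulators were lower in the adults, and the splicing regulators Esrp1 and Esrp2 and the factor Elf3 were higher there. Ovol1, placed on the epithelial side, followed the mesenchymal genes, while Ovol2 and Grhl2 had log2 fold changes of adult over pup of 0.67 and -0.04. By edgeR's quasi-likelihood test with Benjamini-Hochberg adjustment over all 16320 genes, no member passed an adjusted p of 0.05 (0 of 10 higher and 0 of 10 lower in adult). No other gene passed either, so the share called over all genes was 0% in each direction, with 5.99% higher and 8.49% lower in adult at an unadjusted p under 0.05. DESeq2 called Elf3, Esrp1 and Esrp2 higher and Zeb1 and Snai2 lower in adult, against 3.66% of all genes called higher and 5.20% called lower. limma-voom called 0 genes, 0% in each direction. Both pup libraries lay above both adult libraries for 5 members, as for 27.1% of all genes tested, and both adult libraries lay above both pup libraries for 4 members, as for 21.8%.

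Those counts depended on which libraries were kept. Without adult replicate 1, adult was above for 4 members (31.5% of all genes) and pup for 6 (34.0%), with Grhl2 joining the pup side. Without adult replicate 2, Grhl2 instead joined the adult side, giving 5 members (30.2%) and 5 (41.2%). Without pup replicate 1 the counts were 4 (34.0%) and 5 (40.1%), and without pup replicate 2 they were 4 (35.7%) and 5 (47.0%). With the background of pup replicate 1 subtracted, pup was above for 4 members (23.4%), Zeb2 having dropped out, and adult for 4 (25.1%). edgeR called 0 members higher without adult replicate 1 or 2, where 1.40% and 1.51% of all genes were called higher, and 0 lower without adult replicate 1, where 0.987% were. With no filter on low counts it called 1 member, Elf3, higher (0.624% of genes) and 0 lower (0.508%). It also called 0 members when genes had to reach 10 counts in both libraries of 1 age, where 0.0856% of genes were called higher and 0.0132% lower.

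**Figure D2:**
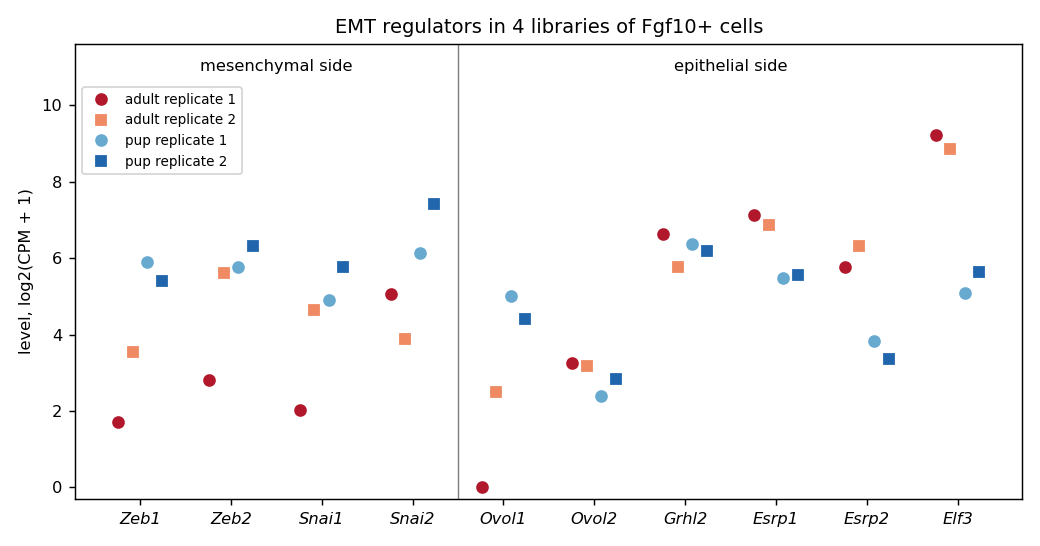
Level of each member (y axis, log2 of CPM + 1) in the 4 libraries (points; circles are replicate 1, squares replicate 2), with the mesenchymal side at the left. All 4 mesenchymal members and Ovol1 have both pup points above both adult points, and Elf3 has the widest gap in the other direction, 592 and 460 CPM against 33.1 and 49.0 CPM.

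E-boxes of the form CACCTG are the sites that SNAIL and ZEB proteins are known to bind. RefSeq promoters of build GRCm38.p6 were at hand for 4 of the 10 members, Zeb2, Snai1, Ovol2 and Elf3, with 7 start sites between them. The 250 bases before each start were searched for CACCTG on both strands, where the reverse strand reads CAGGTG. A match stood in 2 of the 7, those of Snai1 and Elf3, and in 17.2% of all 32851 promoters searched over the same length. Snai1 and Elf3 are shown because they carry the match and lie on opposite sides of the comparison, with Snai1 higher in pup and Elf3 higher in adult. Both are written 5′ to 3′ on the strand of the gene, with the match in capitals.
Snai1, chr2:167537945-167538194, plus strand: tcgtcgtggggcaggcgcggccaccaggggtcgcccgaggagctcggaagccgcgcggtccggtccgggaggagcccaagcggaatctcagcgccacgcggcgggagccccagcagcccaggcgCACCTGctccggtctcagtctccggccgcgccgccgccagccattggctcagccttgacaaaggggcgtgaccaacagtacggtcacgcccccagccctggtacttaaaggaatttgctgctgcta
Elf3, chr1:135258473-135258722, minus strand: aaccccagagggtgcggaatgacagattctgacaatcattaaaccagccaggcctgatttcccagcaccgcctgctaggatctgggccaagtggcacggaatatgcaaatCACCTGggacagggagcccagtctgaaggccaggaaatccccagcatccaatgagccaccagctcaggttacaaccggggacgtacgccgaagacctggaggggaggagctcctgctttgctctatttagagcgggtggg
The match begins 126 bases before the RefSeq start in Snai1 and 140 bases before it in Elf3. The annotation used for gene positions below places the Elf3 start farther upstream, at 135258568, so the Elf3 window reaches into the gene as annotated there. A match describes the letters of this window and is not a measured binding site.

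Zeb1 (ENSMUSG00000024238, chromosome 18, 5591860 to 5775467 in GRCm38) encodes a repressor of E-cadherin. It stood at 2.30 and 10.6 CPM in adult replicates 1 and 2 and at 58.1 and 41.5 CPM in pup replicates 1 and 2. Both pup libraries lay well above both adults, and the adults differed 4.60-fold from each other. The mean was 6.44 ± 5.86 CPM in adult and 49.8 ± 11.8 CPM in pup (SD, n = 2 each), a log2 fold change of adult over pup of -2.95 ± 0.86 (SE). The difference did not pass by edgeR (adjusted p = 0.272) and passed by DESeq2 (adjusted p = 0.0203). Background was expected to supply 144 of the 537 counts of pup replicate 1, and after subtracting it the log2 fold change was -2.98.

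Zeb2 (ENSMUSG00000026872, chromosome 2, 44983632 to 45117395) encodes the close relative of Zeb1, which is also used in endothelial, immune and glial cells. It reached 5.98 and 48.2 CPM in the 2 adult libraries, with 53.8 and 79.0 CPM in the 2 pup libraries. Adult replicate 1 was the low library, and adult replicate 2 came close to the pups. Its log2 fold change was -1.29 ± 0.93 (SE) with an edgeR adjusted p of 0.617 and a DESeq2 adjusted p of 0.515. Zeb2 was 8.06-fold higher in adult replicate 2 than in adult replicate 1, the library pair in which endothelial markers summed to 2342 and 18.7 CPM and fibroblast markers to 17171 and 1066 CPM. Acinar, duct and Schwann cell sums were higher in adult replicate 2 too, and the part of any list in the Zeb2 values was not tested. Without adult replicate 2 the log2 fold change was -3.47 (edgeR adjusted p = 0.0209), and without adult replicate 1 it was -0.50. Background was expected to give 279 of the 497 counts in pup replicate 1. Once it was subtracted, that library stood at 32.2 CPM, below adult replicate 2, and the ages overlapped.

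Snai1 (ENSMUSG00000042821, chromosome 2, 167538195 to 167542814) encodes Snail, a fast-turnover repressor at the onset of EMT. It reached 3.07 and 23.8 CPM in the 2 adult libraries, with 28.9 and 53.4 CPM in the 2 pup libraries. The pups were higher in both libraries, with adult replicate 2 just under pup replicate 1. The log2 fold change was -1.62 ± 0.99 (SE), which did not pass by edgeR (adjusted p = 0.542) or by DESeq2 (adjusted p = 0.426). As with Zeb2, adult replicate 2 exceeded adult replicate 1, here 7.75-fold. Leaving out adult replicate 2 gave -3.74 (edgeR adjusted p = 0.0274), and leaving out adult replicate 1 gave -0.83. In pup replicate 1, 22.7 of the 267 counts were the amount expected from background.

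Snai2 (ENSMUSG00000022676, chromosome 16, 14705852 to 14709385) encodes Slug, which is used in stroma and also in basal and myoepithelial cells. It reached 32.3 and 13.7 CPM in the 2 adult libraries, with 68.8 and 171 CPM in the 2 pup libraries. The ages did not overlap, and here adult replicate 1 was the higher adult, the reverse of Zeb1, Zeb2 and Snai1. Its log2 fold change was -2.39 ± 0.70 (SE), with an edgeR adjusted p of 0.273 and a DESeq2 adjusted p of 0.0221. Snai2 was 2.36-fold higher in adult replicate 1 than in adult replicate 2. The same library had the higher sum of myoepithelial and basal markers, 4615 against 1862 CPM. Acta2, at 2907 and 1197 CPM in the adults, stands in that list and among the pericyte and smooth muscle markers. Ionocyte (5997 against 2896 CPM), pericyte and smooth muscle (4159 against 2038 CPM) and immune (50.6 against 37.5 CPM) sums were also higher there. Fibroblast, endothelial, Schwann cell, acinar and duct sums were lower. The part of any list in the Snai2 values was not tested. An expected background made up 28.3 of 636 counts in pup replicate 1. Without pup replicate 2, the library with the highest Snai2, the log2 fold change was -1.58.

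As a group, all 4 mesenchymal regulators had negative log2 fold changes, with a median of -2.0, beside a median of -0.24 over all genes tested. Leaving out adult replicate 2 moved the median to -3.61, and leaving out adult replicate 1, pup replicate 1 or pup replicate 2 gave -1.56, -2.34 or -1.34. Without adult replicate 2, edgeR called 4 members lower in adult, Zeb1, Zeb2, Snai1 and Ovol1, against 4.49% of all genes called lower in that fit. Zeb1 then had a log2 fold change of -4.43 and an edgeR adjusted p of 0.00474. The lone adult library is there assumed to vary like the pups.

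**Figure D3:**
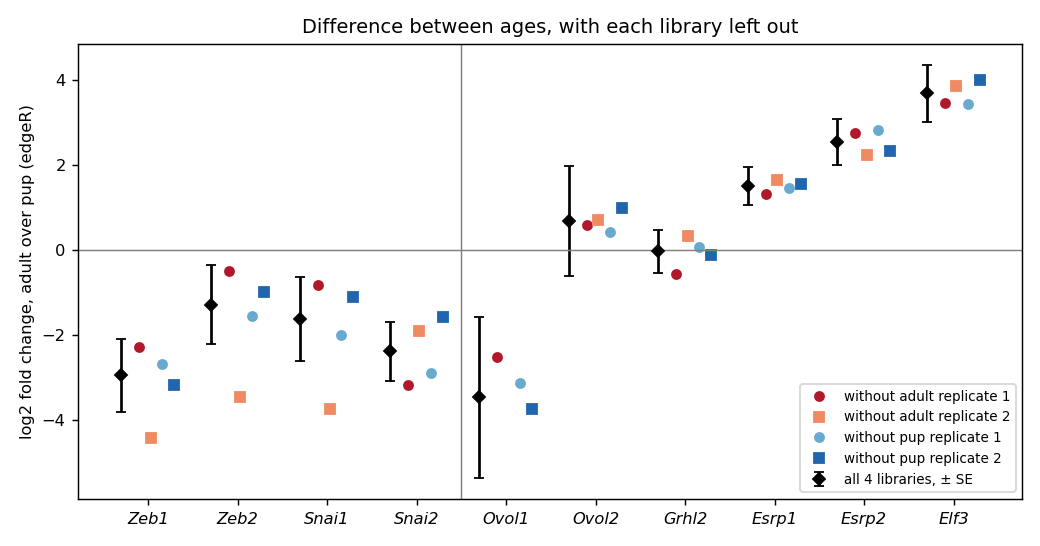
Log2 fold change of adult over pup for each member (y axis, edgeR), with all 4 libraries (diamonds, bars are ± SE) and with each library left out (coloured points). Of the points drawn, Zeb2 and Snai1 move farthest when adult replicate 2 is left out, to -3.47 and -3.74, and Elf3 stays between 3.42 and 3.99. The fit of Ovol1 without adult replicate 2 is not drawn, since the remaining adult library had 0 counts.

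Elf3 (ENSMUSG00000003051, chromosome 1, 135253575 to 135258568), an ETS-family activator of epithelial differentiation, had the largest positive log2 fold change of the 10 members in each fit run. It reached 592 and 460 CPM in the 2 adult libraries, with 33.1 and 49.0 CPM in the 2 pup libraries. The ages were far apart, and libraries of one age lay close to each other. The mean was 526 ± 93.1 CPM in adult and 41.1 ± 11.2 CPM in pup (SD, n = 2 each), a 12.8-fold ratio of means. The log2 fold change was 3.68 ± 0.67 (SE), larger than that of 98.5% of all genes tested. It did not pass by edgeR (adjusted p = 0.184) and passed by DESeq2 (adjusted p = 1.91e-12). An expected background made up 31.0 of the 306 counts in pup replicate 1. The opposite-strand gene Gm26642, below 1 CPM in every library, shares 7.31% of the Elf3 exon length.

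Esrp1 (ENSMUSG00000040728, chromosome 4, 11331933 to 11386783) and Esrp2 (ENSMUSG00000084128, chromosome 8, 106130319 to 106136974), the epithelial splicing regulators, were both higher in the adults. Esrp1 reached 139 and 116 CPM in the 2 adult libraries, with 43.8 and 45.9 CPM in the 2 pup libraries. Its replicates lay close together and the ages did not overlap. Adult exceeded pup by a log2 fold change of 1.5 ± 0.45 (SE), with an edgeR adjusted p of 0.282 and a DESeq2 adjusted p of 0.0389. Esrp2 reached 53.3 and 78.5 CPM in the 2 adult libraries, with 13.3 and 9.35 CPM in the 2 pup libraries. Here too both adults exceeded both pups. The Esrp2 log2 fold change was 2.54 ± 0.54 (SE), with an edgeR adjusted p of 0.210 and a DESeq2 adjusted p of 0.00435. Background was expected to give 88.2 of 405 Esrp1 counts and 60.7 of 123 Esrp2 counts in pup replicate 1. After its subtraction the log2 fold changes were 1.42 for Esrp1 and 2.80 for Esrp2. The opposite-strand genes Nfatc3 and 1810019D21Rik share 7.79% of the Esrp2 exon length, where reads cannot be told apart without strand. Nfatc3 stood at 42.3 and 60.5 CPM in adult and 60.9 and 40.4 CPM in pup. 1810019D21Rik stood at 8.74 and 17.1 CPM in adult and 4.87 and 5.41 CPM in pup.

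Grhl2 (ENSMUSG00000022286, chromosome 15, 37233036 to 37363569), the grainyhead factor, reached 97.2 and 53.3 CPM in the 2 adult libraries, with 82.1 and 72.3 CPM in the 2 pup libraries. The pups lay between the adult libraries, so the ages overlapped. The log2 fold change was -0.04 ± 0.50 (SE; edgeR adjusted p = 0.984), and it ran from -0.58 without adult replicate 1 to 0.33 without adult replicate 2. An expected background made up 120 of the 759 counts in pup replicate 1. The Grhl2 mean was 75.3 ± 31.0 CPM in adult and 77.2 ± 6.96 CPM in pup (SD, n = 2 each).

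Ovol1 and Ovol2, which encode related zinc finger repressors, went different ways. Ovol1 (ENSMUSG00000024922, chromosome 19, 5549136 to 5560646) had 0 counts in adult replicate 1, which allows up to 0.230 CPM at the floor of 3 counts, and stood at 4.61 CPM in adult replicate 2. In the pups it stood at 31.1 and 20.2 CPM, above both adults. The log2 fold change was -3.47 ± 1.90 (SE), which did not pass by edgeR (adjusted p = 0.487) or by DESeq2 (adjusted p = 0.254). Against the floor of adult replicate 1 alone, Ovol1 was at least 88-fold lower than the 20.2 CPM of pup replicate 2. Against the pup mean of 25.6 CPM, background included, the bound was 112-fold. An expected background made up 48.8 of 287 counts in pup replicate 1. Of the Ovol1 exon length, 22.0% is shared with genes on the opposite strand, and the library kit does not mark strand, so reads there cannot be told apart.

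Ovol2 (ENSMUSG00000037279, chromosome 2, 144305175 to 144332146) reached 8.51 and 8.06 CPM in the 2 adult libraries, with 4.22 and 6.20 CPM in the 2 pup libraries. Both adults were above both pups by a small margin. This gave a log2 fold change of 0.67 ± 1.29 (SE; edgeR adjusted p = 0.876, DESeq2 adjusted p = 0.857). In pup replicate 1, 29.6 of the 39 counts were the amount expected from background, which leaves 1.33 CPM, so that library gives little information on Ovol2. The log2 fold change was 0.41 without that library, 1.12 with its background subtracted and 0.97 without pup replicate 2. An opposite-strand gene shares 17.0% of the Ovol2 exon length.

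On the epithelial side as a group, 4 of 6 members had positive log2 fold changes, and the median was 1.08, beside -0.24 over all genes tested. Its members spanned -3.47 for Ovol1 to 3.68 for Elf3, a wider range than the -2.95 to -1.29 of the mesenchymal side. Leaving out each library in turn left the median between 0.94 and 1.25. Duct markers summed to 12859 and 20334 CPM in adult libraries, with 574 and 1566 CPM for the pups. Acinar markers summed to 501 CPM in adult replicate 1 and to 38484 CPM in adult replicate 2, with 588 and 1841 CPM for the pups. Mucl2 alone gave 392 and 37832 CPM of the adult sums, and 13.4 and 94.1 CPM in the pups. Of the 7 acinar markers, 4 had positive and 3 negative log2 fold changes. The negative ones, Smgc, Dcpp1 and Bpifa2, had both pups above both adults. The part of duct and acinar markers in the epithelial values was not tested.

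Levels of different genes were compared per length, as TPM (a per-length abundance scaled to the same total in each library) computed from the counts and the union of annotated exons. In the adults, Elf3 led at 581 and 378 TPM in replicates 1 and 2, followed by Esrp1 at 47.8 and 33.4 TPM. Below them Esrp2, Snai2, Grhl2 and Snai1 had mean levels of 29.8, 23.5, 17.9 and 15.4 TPM, and neighbours in that order overlapped between libraries. Ovol2 followed at 8.76 and 6.95 TPM and overlapped with Snai1, at 4.12 and 26.7 TPM. Zeb2, Ovol1 and Zeb1 came last, with Zeb2 at 0.652 and 4.40 TPM, Ovol1 at 0 and 2.41 TPM and Zeb1 at 0.487 and 1.88 TPM, all overlapping. In the pups the order was led by Snai2 at 112 and 188 TPM, then Snai1 at 58.6 and 72.9 TPM and Elf3 at 49.1 and 48.9 TPM, with no overlap between these neighbours. Grhl2, Ovol1 and Esrp1 followed at mean levels of 25.0, 21.1 and 19.5 TPM and overlapped with each other. Zeb1 came next at 18.6 and 8.93 TPM, overlapping with Esrp1 at 22.9 and 16.1 TPM and above Zeb2 at 8.87 and 8.77 TPM by a small margin in replicate 2. Esrp2, at 10.1 and 4.77 TPM, and Ovol2, at 6.57 and 6.49 TPM, had the lowest means and overlapped with each other, and Esrp2 overlapped with Zeb2.

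The summed level of the 6 epithelial members was 689 and 465 TPM in adult libraries, compared with 149 and 108 TPM in pup libraries. The summed level of the 4 mesenchymal members was 40.0 and 45.3 TPM in adult libraries, compared with 198 and 278 TPM in pup libraries. The ratio of epithelial to mesenchymal sums was therefore 17.2 and 10.3 in adult libraries, compared with 0.754 and 0.387 in pup libraries. The epithelial sum exceeded the mesenchymal sum in both adult libraries, and the reverse held in both pup libraries. Of the 6 epithelial members, 2 and 3 stood above every mesenchymal member in adult replicates 1 and 2, and 0 in either pup library. Snai1 and Snai2 made up most of the mesenchymal sum in every library, so Zeb1 and Zeb2 weighed little in it. In CPM, the mesenchymal sum was 43.6 and 96.2 in adult libraries, compared with 210 and 345 in pup libraries. On a log2 scale with 1 TPM added to each sum, the balance was 4.07 and 3.33 in adult libraries, compared with -0.41 and -1.36 in pup libraries. The mean difference was 4.59, against a spread within an age of 0.60 (SD). As a score over chosen genes it carries no test.

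Elf3 made up 84.3% and 81.3% of the epithelial sum in adult libraries, compared with 32.9% and 45.4% in pup libraries. Without Elf3, the epithelial sum was 108 and 87.0 TPM in adult libraries, compared with 100 and 58.8 TPM in pup libraries, so that 1 pup library lay between the adults. The ratio to the mesenchymal sum was then 2.70 and 1.92 in adult libraries, compared with 0.506 and 0.211 in pup libraries, and the mean log2 difference between ages was 2.77. Without Elf3 the mesenchymal sum therefore differed more between ages than the epithelial sum did. After subtraction of the background, the balance of pup replicate 1 was -0.57.

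**Figure D4:**
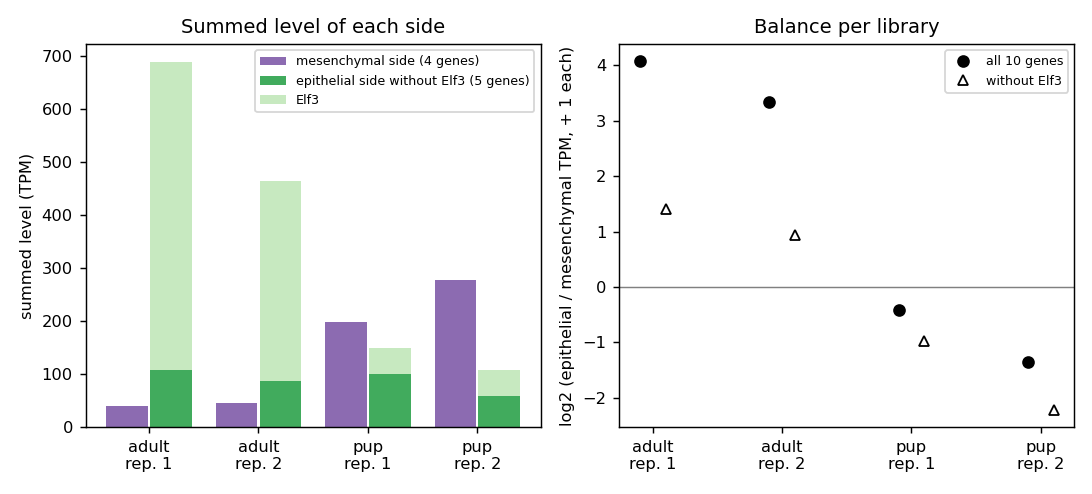
Left, summed TPM of the mesenchymal side and of the epithelial side, with Elf3 stacked as the light part, in each library. Right, the log2 ratio of the sums (1 TPM added to each) with all 10 genes (filled circles) and without Elf3 (open triangles); both adult values are above 0 and both pup values below 0 in either form.

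In 3 of 4 pairs of related genes the ratios of the ages did not overlap. Among all single genes tested, both adults lay above both pups for 21.8% and both pups above both adults for 27.1%. The share over all gene pairs was not computed, so the count of pairs is a description. Zeb1 over Zeb2 had a log2 ratio per length of -0.36 and -1.19 in adult libraries, compared with 1.06 and 0.03 in pup libraries. Ovol1 over Ovol2 was -6.47 and -1.49 in adult libraries, compared with 2.14 and 0.97 in pup libraries, so the leading member of the pair was Ovol2 in both adults and Ovol1 in both pups. With 0 Ovol1 counts in adult replicate 1, the value of -6.47 is set by the 0.1 TPM added, and it was -3.29 with 1 TPM added. The pup replicate 1 value was 3.93 after subtraction of its background. Esrp1 over Esrp2 was 0.84 and 0.02 in adult libraries, compared with 1.17 and 1.74 in pup libraries, with Esrp1 ahead in all 4 libraries. For Snai1 over Snai2 the adults disagreed, at -3.05 and 1.11, and enclosed the pups at -0.93 and -1.36. Of the adults, replicate 1 held mainly Snai2 (34.7 TPM against 4.12 TPM for Snai1), whereas replicate 2 held more Snai1 (26.7 TPM against 12.3 TPM). The Zeb ratio depends on the exons taken as length, since annotated exons of Zeb2 add up to 19942 bases and its longest transcript has 9124. With the longest transcript as length, Zeb1 over Zeb2 was -0.65 and -1.5 in adult libraries and 0.76 and -0.28 in pup libraries, and the mean difference between ages was -1.32 with either length.

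**Figure D5:**
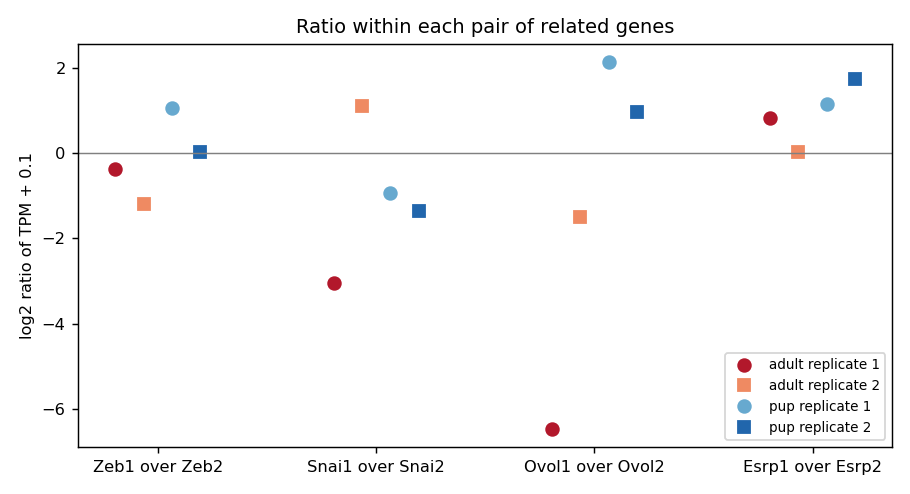
Log2 ratio of TPM (0.1 added to each) within 4 pairs of related genes (x axis) in each library (points; circles are replicate 1, squares replicate 2). Zeb, Ovol and Esrp ratios do not overlap between the ages, while for Snai1 over Snai2 the adult values of -3.05 and 1.11 lie on either side of the pup values.

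Genes of cell adhesion and polarity, which GRHL2 is known to favour and ZEB and SNAIL to repress, were mostly higher in adult. Of 27 genes listed, 25 had positive log2 fold changes, with a median of 2.0, and for 22 both adults lay above both pups, as for 21.8% of all genes. By edgeR 0 were called in either direction, and DESeq2 called 12 higher and 1 lower, beside 3.66% and 5.20% of all genes. The sum of the duct markers given above was also higher in both adult libraries. For 6 of these 8 markers both adults lay above both pups, and Krt19 and Wfdc18 overlapped between ages. The part of duct markers in these values was not tested. Rab25, a trafficking GTPase of epithelia, reached 141 and 112 CPM in the 2 adult libraries, with 3.14 and 9.61 CPM in the 2 pup libraries. Background was expected to give 23.4 of its 29 counts in pup replicate 1. The membrane protease St14 and its inhibitor Spint1 had log2 fold changes of 3.8 ± 0.76 and 3.57 ± 0.62 (SE; edgeR adjusted p = 0.202 and 0.164). Cdh3, the P-cadherin gene of basal epithelium, went the other way, at 17.4 and 16.3 CPM in adult libraries compared with 102 and 134 CPM in pup libraries (log2 fold change -2.81 ± 0.48, edgeR adjusted p = 0.164, DESeq2 adjusted p = 2.22e-06).

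Other epithelial transcription factors were less uniform. Of 13 listed, 11 were tested and 8 had positive values, with a median of 1.45, and leaving out adult replicate 1 or 2 gave 0.04 or 0.62. DESeq2 called 3 higher and 0 lower (3.66% and 5.20% of all genes), and edgeR 0. Both adults lay above both pups for 4 of the 11, as for 21.8% of all genes. Both pups lay above both adults for 3, as for 27.1%. These 3 were Klf4, Klf5 and Trp63, with log2 fold changes of -1.35, -1.40 and -2.05. The ETS factors Ehf and Elf5, relatives of Elf3, were both higher in adult: Ehf stood at 464 and 767 CPM against 63.4 and 123 CPM in the pups, and Elf5 at 60.9 and 74.1 CPM against 7.58 and 1.16 CPM. Both also stand in the list of duct markers. Background was expected to give 82.2 counts of Elf5 in pup replicate 1, which had 70. Grhl1, the relative of Grhl2, had a log2 fold change of 1.75 ± 0.55 (SE; edgeR adjusted p = 0.284), beside -0.04 for Grhl2. In pup replicate 1, 77.5 of the 145 Grhl1 counts were the amount expected from background. Tfcp2l1, a factor of ionocytes and ducts, stood at 1870 and 2078 CPM against 104 and 171 CPM.

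Other EMT-promoting transcription factors were split. Of 13 listed and tested, 9 had negative and 4 positive log2 fold changes, with a median of -0.73, and leaving out adult replicate 2 or 1 gave -2.37 or -0.31. DESeq2 called 1 of them, Prrx1, lower in adult (5.20% of all genes) and edgeR called 0. Prrx1, a homeobox factor of mesenchyme, reached 5.52 and 24.4 CPM in the 2 adult libraries, with 74.8 and 130 CPM in the 2 pup libraries. Twist1, a basic helix-loop-helix factor of mesenchyme, stood at 1.07 and 5.47 CPM against 8.12 and 30.9 CPM. Tcf4, an E-protein, had a log2 fold change of -1.41 ± 0.73 (SE; edgeR adjusted p = 0.463). Foxq1, a forkhead factor, was at 65.5 and 279 CPM in adult libraries compared with 37.9 and 56.2 CPM in pup libraries. An opposite-strand gene shares 66.1% of the Foxq1 exon length, so its reads cannot be told apart there. Adult replicate 2 was the higher adult library for every gene of this list except Tcf12, whichever age was higher.

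Mesenchymal effector genes, which encode matrix and cytoskeletal proteins of stromal cells, had negative log2 fold changes in all 18 tested of 19 listed, and for 15 both pups lay above both adults, as for 27.1% of all genes. Their median was -2.18, and leaving out adult replicate 2 or 1 gave -5.01 or -1.27. DESeq2 called 3 lower (5.20% of all genes), and edgeR 0. Col1a1, Col3a1, Dcn, Lum and Thy1 of this list also stand among the fibroblast markers. Loxl2, a matrix cross-linking oxidase, reached 13.6 and 23.5 CPM in the 2 adult libraries, with 74.2 and 149 CPM in the 2 pup libraries. Postn and Mmp14, for a matricellular protein and a membrane protease, had log2 fold changes of -2.89 ± 0.92 and -2.47 ± 0.82 (SE; edgeR adjusted p = 0.284 for each). Thy1, a surface glycoprotein of fibroblasts, stood at 1.30 and 4.97 CPM against 9.42 and 38 CPM, with 41.9 of its 87 counts in pup replicate 1 expected from background.

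TGF-beta signalling is a known inducer of Snai1, Snai2 and the Zeb genes. Of its 15 ligands, receptors, SMADs and targets, 14 had negative log2 fold changes, beside 9320 of the 16320 genes tested. Both pups lay above both adults for 6 of the 15, as for 27.1% of all genes, and values of Smad4, Smad2 and Skil, at -0.02, -0.19 and -0.19, overlapped between ages. The median was -0.93, which was -0.36 without pup replicate 2 and -1.83 without adult replicate 2. Without pup replicate 2, 11 of the 15 were negative. DESeq2 called 2 lower (5.20% of all genes) and edgeR 0. Smad3, a transducer of the pathway, reached 8.05 and 14.2 CPM in the 2 adult libraries, with 47.4 and 107 CPM in the 2 pup libraries (log2 fold change -2.80 ± 0.65, SE; edgeR adjusted p = 0.232). Tgfbr3, a coreceptor, reached 53.0 and 100 CPM against 241 and 333 CPM. The inhibitors Smad7 and Ski, which damp the pathway, had values in the same direction, -1.31 ± 0.70 and -1.81 ± 0.64 (SE).

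Corepressors that ZEB and SNAIL proteins recruit went both ways. Of 11 genes, 4 had positive and 7 negative log2 fold changes, with a median of -0.12, which was 0.15 without pup replicate 2. Both adults lay above both pups for 2 of them, Ctbp1 and Smarca4, and both pups above both adults for 3, Hdac2, Sin3a and Ajuba, as for 21.8% and 27.1% of all genes. DESeq2 called 0 higher and 1 lower (3.66% and 5.20% of all genes), and edgeR 0. The gene called was Ajuba, a LIM-domain partner of SNAIL, at 34.4 and 19.9 CPM in adult libraries compared with 81.9 and 138 CPM in pup libraries. Ctbp1, the corepressor bound by ZEB proteins, stood at 213 and 207 CPM in adult libraries compared with 70.7 and 171 CPM in pup libraries, and Smarca4, a remodelling ATPase, had a log2 fold change of 0.57 ± 0.49 (SE). Sin3a, a scaffold for histone deacetylases, had -0.76 ± 0.54 (SE). Among 8 genes that control turnover of SNAIL and ZEB proteins, neither tool called any at an adjusted p of 0.05, 0 in each direction. DESeq2 called 3.66% of all genes higher and 5.20% lower, and edgeR 0%. The median of the 8 was -0.69. At an unadjusted p under 0.05, edgeR gave 0 of the 8 higher and 1 lower, beside 5.99% and 8.49% of all genes. The 1 was Usp37, a deubiquitinase, with a log2 fold change of -1.54 ± 0.53 (SE). The ubiquitin ligase genes Fbxo11, Fbxw7 and Fbxl5 had log2 fold changes of -1.03, -1.0 and 0.95.

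Among 18 other regulators of alternative splicing, 15 were tested, with a median of -0.25, beside -0.24 over all genes, and of 0.05 without pup replicate 2. DESeq2 called 1 higher and 1 lower of the 15, near the 3.66% and 5.20% of all genes, and edgeR 0. Rbm47, an epithelial RNA-binding protein, followed Esrp1 and Esrp2, at 112 and 158 CPM in adult libraries compared with 22.2 and 33.9 CPM in pup libraries (log2 fold change 2.26 ± 0.51, SE; edgeR adjusted p = 0.227). Background was expected to give 100 of the 205 Rbm47 counts in pup replicate 1. Qk and Celf2, which are prominent in mesenchymal and neural cells, had log2 fold changes of -1.56 ± 0.59 and -1.38 ± 0.53 (SE). Rbfox3, a neuronal factor, had 0 counts in both adults and 187 and 48 counts in the pups, with 81.4 expected from background in pup replicate 1. At a floor of 3 counts over both adults, it was at least 22.6-fold lower in adult than the 2.52 CPM of pup replicate 2. Against the mean of both pups, background included, the bound was 102-fold.

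Fgfr2, the receptor for Fgf10, is a classic host of exons that ESRP proteins choose. The whole-gene level of Fgfr2 was lower in adult, at 31.8 and 26.1 CPM against 164 and 177 CPM in the pups (log2 fold change -2.56 ± 0.48, SE; edgeR adjusted p = 0.196, DESeq2 adjusted p = 3.70e-06). Among the 10 host genes listed, 6 had positive and 4 negative log2 fold changes, with a median of 0.44, which was -0.05 without pup replicate 1. DESeq2 called Fgfr2 alone (5.20% of all genes called lower) and edgeR 0. Itga6, an integrin of the basement membrane, and Exoc7, a subunit of the exocyst, had log2 fold changes of -1.45 ± 0.74 and 0.88 ± 0.45 (SE). Gene counts do not show which exons were used, so splicing itself was not analysed here.

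Genes most like each side were ranked by the distance of their centred log2(CPM + 1) from the mean of the side, over 4 libraries and 8126 genes with a mean of at least 20 CPM. Nearest to the mesenchymal side were Hspg2, Olfml1, Rhod, Obsl1 and Epha4, at distances of 0.0947 to 0.243. Hspg2, the basement membrane proteoglycan perlecan, reached 55.2 and 164 CPM in the 2 adult libraries, with 409 and 552 CPM in the 2 pup libraries. Nearest to the epithelial side were Ascc2, Kansl3, Eif4enif1, Trim68 and Tpcn1, at distances of 0.0249 to 0.117. The epithelial profile was shallow, from 0.51 in adult replicate 2 to -0.40 in pup replicate 2 on the centred log2 scale, and Ovol1 ran against Elf3, Esrp1 and Esrp2. The mesenchymal profile ran from -1.90 in adult replicate 1 to 1.43 in pup replicate 2. With 4 libraries these rankings are descriptions.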

How the data were processed

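RNA-seq was done on FGF10+ cells in 4 libraries, 2 per age, prepared from total RNA with the SMART-Seq HT kit, per the labels' protocols. The deposited values are raw read counts per Ensembl gene, 1 file per library, made by the authors. The submitters' processing notes name cutadapt 1.18, STAR 2.5.2a, HTSeq 0.11.0, R 3.5.1, DESeq2 1.20.0 and GRCm38. The sources used here do not give the annotation release, the counting options or the strand setting. HTSeq tallies of reads not assigned to any gene for whatever reason (31.5% to 84.4% of tallied reads) stayed out of all tests. In 2 tables of the whole series, 8 value columns match no single sample and were not used.

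Symbols, positions and exon lengths are from GENCODE vM21 (53360 of 53465 genes matched). The main test was edgeR 4.0.16 (R 4.3.3) with TMM factors, a model with age alone and a quasi-likelihood F test. Genes were kept by filterByExpr with a minimum count of 10 and a minimum total of 15. It applies the minimum count as a CPM cut-off to be reached in at least 2 libraries. Calls were made at a Benjamini-Hochberg adjusted p under 0.05 over all genes. The common biological coefficient of variation was 0.895. SE is the log2 fold change divided by the root of F. Alternatives were other scalings, filters, DESeq2 1.42.0, limma-voom (limma 3.58.1), a replicate block, each library left out on the same genes, and subtraction of the pup replicate 1 background (exon length times the olfactory receptor rate, with a factor of 0.5 for X and Y). Scripts were tested on simulated data. An exact permutation test of 2 against 2 libraries cannot go below 0.333.

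Members and lists were chosen with earlier results of these data known. All members are named. Each list contributes up to 4 genes of smallest p with a mean of at least 5 CPM, or for marker lists the 2 of highest mean. Some further genes of the lists are named beside these. Likeness used the 5 nearest genes.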

Additional observations from a re-analysis of the deposited data

How the results depend on the processing

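Of 130 member fold changes under alternatives, 117 kept their direction and their side of the threshold, 10 kept direction and passed it, and 3 changed sign. The 3 were all of Grhl2, at 0.12 with no filter, 0.33 without adult replicate 2 and 0.06 without pup replicate 1, and its range with 1 library left out was -0.58 to 0.33. Counts of genes called higher and lower in adult were 0 and 0 by edgeR, 284 and 231 with no filter, 13 and 2 with 10 counts in every library of an age, and 597 and 848 by DESeq2. Leaving out 1 library gave 0 to 247 called higher and 0 to 733 called lower, with calls in only 2 of the 4 cases, those lacking adult replicate 1 (229 and 161) or adult replicate 2 (247 and 733). Members called numbered 1 higher with no filter (Elf3, adjusted p = 0.0159) and 3 higher and 2 lower by DESeq2. With 1 library left out the members called were 0 higher in every case and 0 to 4 lower. Members with both adults above both pups numbered 4 to 5 and those with both pups above 5 to 6 when 1 library was left out. Those alternatives, the longest transcript as length and the bounds against pup replicate 2 alone were chosen after seeing the data. The balance difference of 4.59 was 3.06 as a mean of log2(CPM + 1), 2.83 as a mean of log2(TPM + 1) and 2.77 without Elf3, and 4.11 to 5.06 with 1 library left out. The cause of these changes was not tested beyond the construction of each alternative. With the replicate number as a block, edgeR called 0 genes and 0 members. Same-numbered libraries share only a number, and the correlation of their deviations was -0.0348. Pup replicate 1 limits Ovol2, Esrp2 and Zeb2, where background was expected to give 75.8%, 49.4% and 56.1% of its counts.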

Other observations

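Gm16136, annotated on the strand opposite to Grhl2, was singled out after its values were seen. It reached 76.6 and 83.3 CPM in adult libraries, with 8.87 and 24.4 CPM in pup libraries, while Grhl2 itself had a log2 fold change of -0.04. It shares 1.96% of the Grhl2 exon length, and without strand its reads and those of Grhl2 cannot be told apart there. Gm10125, opposite to Zeb1, had 0 and 13 counts in adult libraries and 170 and 25 counts in pup libraries.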
